A study of Caenorhabditis elegans with 24 samples.

Results

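The ABC transporter genes described here were the rows of the count table whose names begin with haf, pgp, mrp, abt, wht, pmp, hmt or cft followed by a number, and that had 10 or more counts in at least 3 of the 24 libraries. The name pattern matched 48 of the 43800 gene entries, and 46 of them met the count rule. These 46 were 13 pgp, 7 haf, 1 hmt, 7 mrp, 1 cft, 4 abt, 8 wht and 5 pmp genes. The 2 names left out were haf-8, with 0 counts in every library, and abt-6, with at most 4 counts in any library. Just inside the rule lay pgp-7, which had 10 or more counts in 4 libraries, and pgp-8, which had them in 13. All 46 members also passed the expression filter that left 15871 genes for testing.

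ABC transporters bind ATP on paired cytoplasmic domains and use its hydrolysis to move lipids, metals bound to peptides, drugs, haem or other molecules across a membrane. The pgp genes encode P-glycoproteins, the mrp and cft genes encode relatives of multidrug resistance proteins and of the CFTR channel, and the abt genes encode relatives of the ABCA lipid transporters. The haf, hmt, wht and pmp genes encode shorter proteins that pair up to work, in mitochondria, lysosome-related gut granules, the plasma membrane or peroxisomes. In Caenorhabditis elegans several of them are known from the intestine, where they take part in drug and metal resistance, fat and granule biology and RNA interference.

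RNA was measured in whole L4 hermaphrodites of the wild-type strain N2 and of 3 mutants. The mutants were efk1, with the allele efk-1(ok3609), zip2, with the allele zip-2(tm4248), and cep1, with the allele cep-1(gk138). efk-1 encodes a kinase that acts on elongation factor eEF2, cep-1 the worm p53 homolog and zip-2 a bZIP transcription factor. All strains were grown on OP50 bacteria to mid-L4, and each was either frozen at once (fed) or, after 5 washes in M9, held without food for 8 h (starved). Each of the 8 groups had 3 libraries, with totals of 14622266 to 30266282 counts. The labels do not say whether the libraries of a group came from separate cultures, so p-values measure the spread between these libraries. Starved animals were also 8 h older than fed animals, so age and food cannot be told apart. RNA came from whole animals, so fewer cells of a type and less RNA per cell cannot be told apart either. The efk-1 transcript was lower in efk1 than in N2, fed and starved (log2 fold changes of -2.07 and -2.87, edgeR adjusted p of 5.75e-06 and 2.82e-08). Neither zip-2 in zip2 (adjusted p 0.258 fed and 1 starved) nor cep-1 in the libraries labelled cep1 (adjusted p 0.552 fed and 0.818 starved) differed at an adjusted p under 0.05. The log2 fold changes of zip-2 were -0.81 fed and -0.52 starved, with every zip2 library below every N2 library under the same food. Those of cep-1 were 0.34 fed, where the groups overlapped, and -0.21 starved, where they did not.

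A gene is called here at an edgeR quasi-likelihood adjusted p under 0.05, with Benjamini-Hochberg adjustment over all 15871 genes. Levels are CPM, counts scaled to library size, with TMM factors. Some libraries stood apart from the rest of their groups. The starved libraries numbered 2 of N2, efk1 and zip2 had TMM factors of 0.8365, 0.7785 and 0.6515, the lowest of their groups, and the highest summed oocyte markers of their groups (3055, 2207 and 3309 CPM). In them the members lay at a median of -0.289, -0.247 and -0.363 from their group means on the log2 scale. In starved replicate 3 of N2 and of zip2 and in fed replicate 3 of cep1 the members lay above their group means instead, at 0.344, 0.408 and 0.315. Starved cep1 replicate 3 had a TMM factor of 0.8476, against 1.222 and 1.3116 in the others, and 3747 CPM of oocyte markers. Deviations also followed gene length in some libraries. Genes with over 4000 bases of exon deviated by -0.307 in starved zip2 replicate 2, 0.329 in starved zip2 replicate 3, 0.293 in starved cep1 replicate 1 and -0.283 in starved cep1 replicate 3, and genes under 1000 bases by 0.126, -0.151, -0.209 and 0.175. The part of these differences in the results was not tested, and counts without single libraries are given beside those with all.

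The most abundant ABC transporter transcripts of fed animals, pgp-1 and pmp-5, both fell on starvation. In fed N2 the members together reached 2060 ± 102 CPM (SD, n = 3), and in starved N2 1084 ± 95.3 CPM. Without pgp-1 and pmp-5 the same sums were 1267 ± 48.1 and 998 ± 86.6 CPM. The pgp genes together went from 578 ± 79.5 to 82.3 ± 30.0 CPM, the pmp genes from 524 ± 44.7 to 191 ± 28.9 CPM and the abt genes from 196 ± 21.7 to 58.3 ± 19.9 CPM. The sums of the mrp genes (224 ± 17.2 to 286 ± 25.7 CPM) and of the wht genes (128 ± 2.12 to 155 ± 31.5 CPM) had higher means in starved N2, and the difference for wht was smaller than the SD of the starved libraries. These sums were not tested. Per kilobase of exon, pmp-5 was the highest member in fed N2 at 178 ± 16.3 CPM per kb (SD, n = 3) and made up 26.6% of the members' summed level per kb, followed by pgp-1 at 91.4 ± 16.4, haf-4 at 44.96 ± 11.5, haf-9 at 43.2 ± 9.72 and abt-4 at 28.3 ± 3.66 CPM per kb. In starved N2 the order was pmp-5 at 35.5 ± 7.41, wht-2 at 27.9 ± 4.01, haf-2 at 25.5 ± 5.33, wht-7 at 24.5 ± 10.1 and haf-4 at 24.5 ± 3.58 CPM per kb, while pgp-1 stood in place 41 of 46 at 0.643 CPM per kb. haf-4 and haf-9 when fed, and the 4 genes after pmp-5 when starved, differed by less than their SDs.

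Starvation of N2 called 16 of the 46 members (34.8%), against 32.3% of all genes tested. Of these, 5 were higher, against a background of 15.9%, and 11 were lower, against 16.4%. The share of called members was close to the background, and the split was towards lower levels. The median log2 fold change over the members was -0.69, against 0 over all genes, and 34 of 46 members had a value below 0. Among efk1 libraries 13 members were called, 10 falls and 3 rises, beside 25.4% of all genes (11.6% down, 13.7% up). For zip2 the count was 19, with 14 falls and 5 rises, beside 34.4% of all genes (16.8% down, 17.6% up). For the libraries labelled cep1 it was 18, all of them falls, beside 28.4% of all genes (16.1% down, 12.3% up). The members' medians in these 3 strains were -0.51, -0.56 and -0.83, against 0.06, 0.01 and 0.01 over all genes. Without the 3 starved libraries numbered 2, the counts were 13 in N2, 10 in efk1 and 15 in zip2. Leaving out starved N2 replicate 2 alone gave 10 calls in N2, and leaving out starved replicate 3 gave 23 in N2, 23 in zip2 and 16 in cep1. In efk1 the count was 6 without fed replicate 1 or starved replicate 2 and 7 without fed replicate 2. In zip2 it was 10 without starved replicate 2 and 12 without fed replicate 3, and for the libraries labelled cep1 it was 9 without fed replicate 3 and 10 without starved replicate 1. The shares of all genes called in these smaller fits are not given here, so these counts stand without a background.

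**Figure D1:**
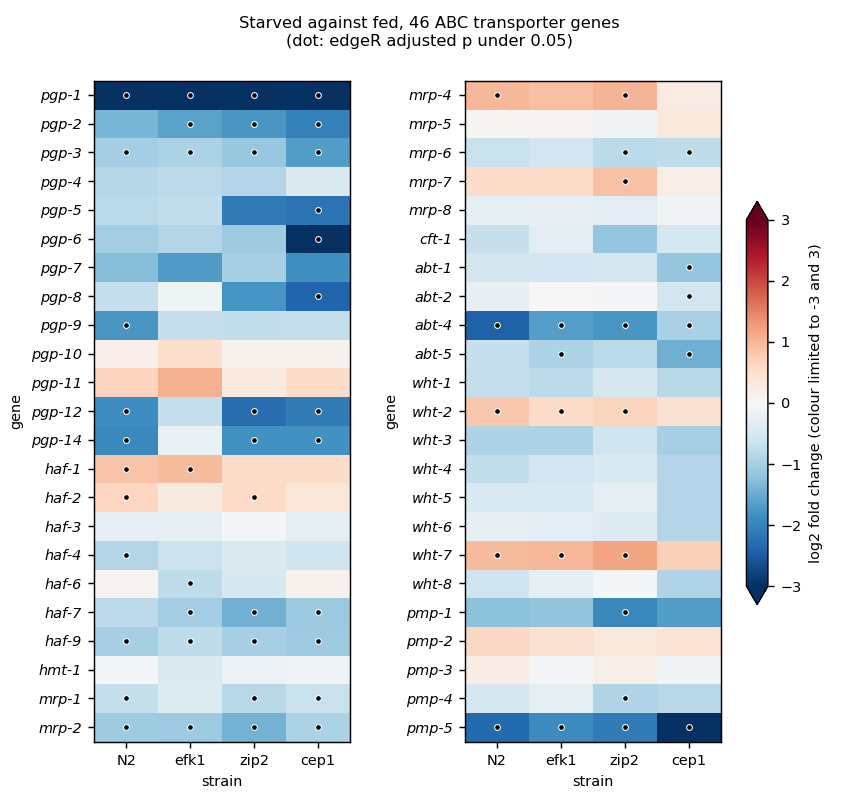
Log2 fold change of starved against fed animals for the 46 genes (rows) in the 4 strains (columns), with colour limited to -3 and 3 and a dot where the edgeR adjusted p was under 0.05. Rows of pgp-1, pgp-3, haf-9, mrp-2, abt-4 and pmp-5 carry a lower value with a dot in all 4 strains, and no row carries a higher value with a dot in all 4.

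Across strains, 6 members (13%) were called lower on starvation in all 4, against 6.81% of all genes tested. They were pgp-1, pgp-3, haf-9, mrp-2, abt-4 and pmp-5. No member was called higher in all 4 strains, against 882 of the 15871 genes. In all, 17 members were called in 0 strains, against 7766 of the 15871 genes. Lower calls in at least 1 strain were found for 23 members, including those lower in all 4, against 3876 of the 15871 genes. Higher calls in at least 1 strain were found for 6 members, against 4269 of the 15871 genes. Those 6 were haf-1, haf-2, mrp-4, mrp-7, wht-2 and wht-7, and none of them was called in the libraries labelled cep1. The 4 comparisons use separate libraries. Whether the response differs between strains is given by the interaction tests below.

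Among the P-glycoproteins, pgp-1 (WBGene00003995, chromosome IV, 12591704 to 12599169, minus strand in the WBcel235 annotation) had the greatest change of any member. In fed N2 its level was 445, 366 and 311 CPM in the 3 libraries, and in starved N2 2.46, 2.10 and 3.34 CPM. Every fed library lay far above every starved library. The log2 fold change was -7.13 (SE 0.66, adjusted p 2.01e-07), or 140.1-fold. In efk1 the fed libraries held 334, 399.5 and 437 CPM and the starved ones 4.06, 3.88 and 8.08 CPM (-6.19 on the log2 scale, SE 0.62, adjusted p 6.13e-07). In zip2 the levels were 249, 348 and 211 CPM fed and 2.42, 2.53 and 4.31 CPM starved (-6.45 on the log2 scale, SE 0.64, adjusted p 4.95e-07). The same gap between fed and starved libraries was seen in these strains. In the libraries labelled cep1 the fed values were uneven, at 32.5, 194 and 327 CPM, against 1.16, 3.47 and 2.88 CPM starved, and the log2 fold change was -6.21 (SE 0.63, adjusted p 5.37e-07). The fed library with 32.5 CPM of pgp-1 also had the highest summed oocyte markers of its group (2325 CPM, against 1502 and 671) and the lowest summed hypodermal markers (194 CPM, against 438 and 565). Its summed intestinal markers were the lowest of the group too (1712 CPM, against 1919 and 2432). The part of these markers in the pgp-1 level was not tested. None of the 4 calls was lost when any 1 library was left out.

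Other P-glycoproteins changed less. pgp-14, needed for the polar lipid barrier of the pharyngeal cuticle, was at 49.5, 68.2 and 29.7 CPM in fed N2 and at 17.9, 4.94 and 15.3 CPM in starved N2. The groups did not overlap, and starved replicate 2 was the lowest library. On the log2 scale the change was -1.94 (SE 0.53, adjusted p 0.00877). It was also called in zip2 (-1.83, adjusted p 0.0115) and also in those labelled cep1 (-1.81, adjusted p 0.0137). In efk1, by contrast, the fed libraries (32.6, 46.5 and 44.8 CPM) and the starved ones (52.9, 20.3 and 33.8 CPM) overlapped, with a log2 fold change of -0.21 (adjusted p 0.802). The difference between the efk1 and N2 responses was 1.74 (SE 0.72, adjusted p 0.747) and was not called. The zip2 call was lost without fed replicate 2 or starved replicate 2 (adjusted p up to 0.0578), and that of cep1 without fed replicate 3 or starved replicate 1 (up to 0.0876).

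pgp-12, known from the excretory cell, fell from 2.86 ± 0.484 to 0.752 ± 0.486 CPM in N2 (log2 fold change -1.87, adjusted p 0.00134). It also fell in zip2 (-2.29, adjusted p 0.000315) and also in those labelled cep1 (-2.10, adjusted p 0.000683), and was not called in efk1 (-0.70, adjusted p 0.175). Of the 4 excretory cell markers, aqp-8 was called lower in N2 (-1.58) and in zip2 (-0.97), and exc-4, exc-9 and sulp-4 were called in none of the 4 strains. The part of that tissue in the pgp-12 change was not tested. pgp-9 was called only in N2, where it fell from 69.4 ± 30.0 to 20.7 ± 5.70 CPM (-1.74, adjusted p 0.00063), while its values in the other strains were -0.70 to -0.74. pgp-3, linked in worms to resistance to drugs and metals, fell in every strain, by -1.02 in N2, -0.95 in efk1, -1.14 in zip2 and -1.66 in the libraries labelled cep1 (adjusted p 0.00291, 0.00526, 0.00136 and 3.28e-05). None of these pgp-3 calls was lost when any 1 library was left out. pgp-2, which acts in gut granule formation, was called lower in efk1 (-1.61, adjusted p 0.0362), in zip2 (-1.75, adjusted p 0.0201) and also in those labelled cep1 (-2.02, adjusted p 0.0098), and had a value of -1.37 in N2 (adjusted p 0.06). The efk1 call of pgp-2 was lost in all 6 fits that left out 1 library each (adjusted p up to 0.165), and the zip2 call in 3 of 6 (up to 0.0819), without fed replicate 3, starved replicate 1 or starved replicate 2. The lowest of the P-glycoproteins, pgp-7 and pgp-8, were at 0.297 ± 0.169 and 0.683 ± 0.33 CPM in fed N2. pgp-10 and pgp-11 were the only pgp genes with values above 0 in all 4 strains, from 0.10 to 0.52 and from 0.30 to 1.07, and neither was called.

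**Figure D2:**
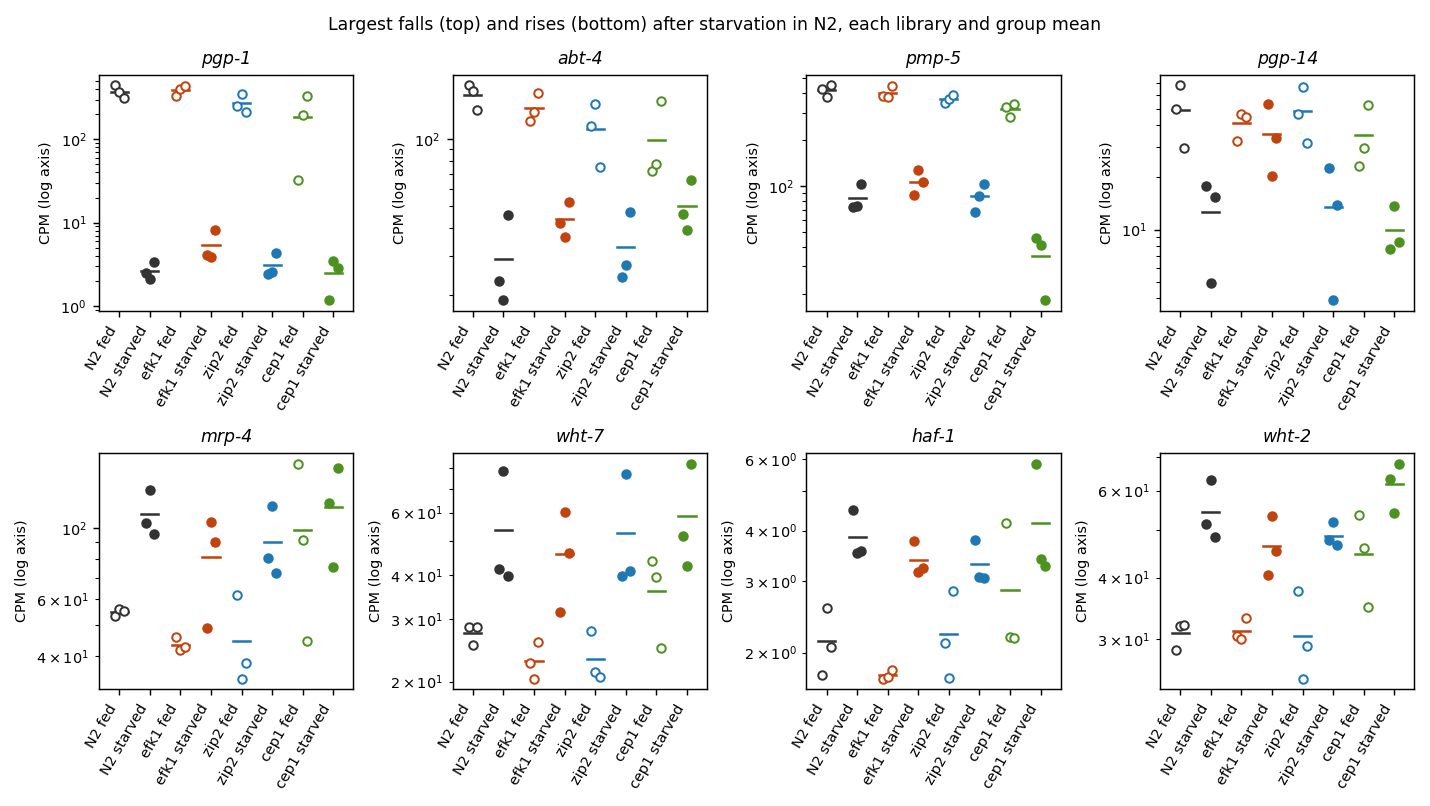
Level in CPM on a log axis, by group, of the 4 members with the greatest called falls in N2 (top) and the 4 with the greatest called rises (bottom). Open circles are fed libraries, filled circles starved libraries and bars group means. pgp-1 is at 311 to 445 CPM in fed N2 and at 2.10 to 3.34 CPM in starved N2, and wht-2 is at 28.5 to 32.1 and 48.3 to 63.0 CPM.

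Of the 7 haf genes, 2 were called higher and 2 lower in starved N2. The called falls were haf-4 and haf-9, whose products work together in lysosome-related gut granules. haf-9 was at 108, 93.6 and 144 CPM in fed N2 and at 55.3, 57.2 and 61.6 CPM in starved N2. The starved libraries lay close together and below all fed ones. haf-9 fell by 0.99 on the log2 scale (SE 0.22, adjusted p 0.00203), and in efk1, zip2 and the libraries labelled cep1 its log2 fold changes were -0.75, -0.997 and -1.09 (adjusted p 0.0144, 0.00194 and 0.000831). The efk1 call was lost without fed replicate 1 (adjusted p 0.0591). haf-4 was at 142, 83.6 and 117 CPM fed and at 52.4, 70.4 and 63.6 CPM starved in N2 (log2 fold change -0.88, adjusted p 0.0177), and was not called in the other strains (-0.43 to -0.65). Its N2 call was lost without fed replicate 1 (adjusted p 0.0943) or without starved replicate 1. haf-7 was called lower in efk1, zip2 and the libraries labelled cep1 (-1.03, -1.45 and -1.11), and had a value of -0.79 in N2 (adjusted p 0.0765). The zip2 call of haf-7 was kept in every fit that left out 1 library, and the efk1 call was lost in 5 of 6 (all but that without starved replicate 3, adjusted p up to 0.128). The cep1 call was lost without fed replicate 3 (0.139) or starved replicate 3.

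haf-1, which exports peptides from mitochondria in the mitochondrial stress response, was a scarce transcript. It was at 1.76, 2.58 and 2.07 CPM in fed N2 and at 4.50, 3.52 and 3.55 CPM in starved N2. All starved libraries were above all fed ones. The log2 fold change was 0.84 (SE 0.29, adjusted p 0.0317) in N2 and 0.95 (SE 0.30, adjusted p 0.0243) in efk1. haf-2, reported as needed for efficient RNA interference, went from 41.6 ± 3.28 to 65.2 ± 13.6 CPM in N2 (log2 fold change 0.65, adjusted p 0.0156) and was also called in zip2 (0.61, adjusted p 0.0207). In N2 the haf-1 call was lost without fed replicate 1 (adjusted p 0.117) or 3 or starved replicate 1 or 2, and the haf-2 call without starved replicate 2 (adjusted p 0.109) or fed replicate 2. In efk1 the haf-1 call was lost in all such fits but that without starved replicate 3 (up to 0.0768), and in zip2 the haf-2 call without fed replicate 2 (0.111), fed replicate 3 or starved replicate 2. haf-3 was not called in any strain, with values of -0.07 to -0.28. hmt-1, which protects worms from cadmium, was at 64.8, 54.1 and 63.5 CPM fed and at 53.9, 69.2 and 53.2 CPM starved in N2. The groups overlapped fully, and the log2 fold change of -0.05 (adjusted p 0.839) was not called.

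The mrp genes moved in both directions. mrp-4, the most abundant of them, was at 53.1, 56.1 and 55.1 CPM in fed N2 and at 104, 131 and 95.5 CPM in starved N2. The groups were well apart, with starved replicate 2 the highest. On the log2 scale the change was 1.01 (SE 0.36, adjusted p 0.0355), and in zip2 it was 1.01 (adjusted p 0.0332). The N2 call was lost in 5 of 6 fits that left out 1 library (all but the fit without starved replicate 3), with an adjusted p of up to 0.125 without starved replicate 2. The zip2 call was lost in 3 of 6, without fed replicate 2, fed replicate 3 or starved replicate 2 (up to 0.155). In the libraries labelled cep1, mrp-4 was at 158, 91.8 and 44.5 CPM when fed and was not called (0.24, adjusted p 0.643). Those 3 fed libraries had summed oocyte markers of 2325, 1502 and 671 CPM in the same order, and the part of these markers was not tested. mrp-7 was called higher in zip2 only (0.87, adjusted p 0.00915), with values of 0.56 in N2 and 0.57 in efk1. That call was lost without fed replicate 3 or starved replicate 2 (adjusted p up to 0.0706).

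mrp-2 and mrp-1, neighbours on chromosome X that lie 3610 bases apart, were called lower. mrp-2 went from 10.8 ± 1.51 to 5.08 ± 1.60 CPM in N2 (log2 fold change -1.08, adjusted p 0.00955) and was called lower in efk1, zip2 and the libraries labelled cep1 (-1.101, -1.41 and -0.94). Without starved replicate 2 the adjusted p of mrp-2 was 0.056 in N2 and 0.0682 in efk1, and the cep1 call was lost without fed replicate 3 or starved replicate 1 (up to 0.115). mrp-1, which contributes to metal resistance, went from 38.7 ± 3.81 to 23.7 ± 4.35 CPM in N2 (-0.70, adjusted p 0.0218) and was called in zip2 (-0.83) and in the libraries labelled cep1 (-0.67), but not in efk1 (-0.41, adjusted p 0.188). Its N2 call was lost in 3 of 6 fits, without starved replicate 2 (adjusted p 0.107), starved replicate 1 or fed replicate 3. The zip2 call was lost without starved replicate 2 (0.0534), and the cep1 call without fed replicate 3 (0.142), starved replicate 1 or starved replicate 3. mrp-6 was called lower in zip2 (-0.82, adjusted p 0.0278) and also in those labelled cep1 (-0.76, adjusted p 0.0425), the first lost without fed replicate 1 or 3 or starved replicate 1 or 2 (up to 0.135) and the second in all such fits but that without fed replicate 2 (up to 0.108). mrp-5, the intestinal haem exporter, was not called in any strain, with values of -0.12 to 0.33. cft-1 was scarce, at 0.855, 1.89 and 2.21 CPM in fed N2 and 1.28, 0.473 and 1.24 CPM in starved N2. These ranges overlapped, and the log2 fold change was -0.70 (adjusted p 0.277).

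Among the abt genes, abt-4 (WBGene00000022, chromosome V, 323777 to 330725, minus strand) had the most RNA. It was at 173, 163 and 134 CPM in fed N2 and at 23.1, 19.01 and 45.6 CPM in starved N2. No starved library came near the fed ones, and starved replicate 3 was the highest of its group. The log2 fold change was -2.42 (SE 0.35, adjusted p 4.38e-05), or 5.34-fold. The values were -1.65 in efk1, -1.76 in zip2 and -0.98 in the libraries labelled cep1 (adjusted p 0.00149, 0.000893 and 0.0354), and the last was lost without fed replicate 3, starved replicate 1 or starved replicate 2 (adjusted p up to 0.271). In the libraries labelled cep1 all 4 abt genes were called lower, with log2 fold changes of -1.16 (abt-1), -0.54 (abt-2), -0.98 (abt-4) and -1.47 (abt-5), and of these only the abt-5 call was kept in every fit that left out 1 library. The abt-1 call was lost without fed or starved replicate 1 or 3 (up to 0.151) and the abt-2 call in all such fits but that without fed replicate 2 (up to 0.238). abt-5 was also called in efk1 (-0.92, adjusted p 0.044), a call lost in all such fits but that without starved replicate 1 (up to 0.224).

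The wht genes, relatives of the Drosophila white transporter, split into 2 members that rose and 6 that were not called. wht-2 was at 28.5, 32.0 and 32.1 CPM in fed N2 and at 51.3, 63.0 and 48.3 CPM in starved N2. The groups were separate, and the spread within each was small beside the gap. On the log2 scale the change was 0.81 (SE 0.18, adjusted p 0.00239), and this call was kept in every fit that left out 1 library. It was 0.57 in efk1 and 0.67 in zip2 (adjusted p 0.0252 and 0.0082), and 0.46 in the libraries labelled cep1 (adjusted p 0.0584). wht-7 was at 28.5, 25.4 and 28.5 CPM fed and at 41.6, 78.8 and 39.9 CPM starved in N2. Starved replicate 2 was the highest library by far. The log2 fold change was 0.96 (SE 0.32, adjusted p 0.0263), and without that library it was 0.57 (adjusted p 0.215). It was also lost without any 1 of the fed N2 libraries. In efk1 and zip2 the wht-7 values were 1.00 and 1.18 (adjusted p 0.0254 and 0.00832). The efk1 calls of wht-2 and wht-7 were each lost without fed replicate 1 or 2 or starved replicate 2 or 3 (up to 0.138 and 0.151), and the zip2 call of wht-7 without starved replicate 2 (adjusted p 0.081) and that of wht-2 without fed replicate 2 (0.0564). The other 6, wht-1, wht-3, wht-4, wht-5, wht-6 and wht-8, had values below 0 in all 4 strains, from -0.02 to -1.01, and none was called.

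Of the pmp genes, some of whose relatives bring fatty acids into peroxisomes, only pmp-5 was called in N2. pmp-5 (WBGene00004062, chromosome V, 6662191 to 6665813, minus strand) was at 428, 376 and 451 CPM in fed N2 and at 73.5, 73.6 and 104 CPM in starved N2. The fed and starved libraries were far apart. On the log2 scale the change was -2.32 (SE 0.27, adjusted p 2.21e-06), or 5.00-fold. It was -1.92 in efk1, -2.11 in zip2 and -3.16 in the libraries labelled cep1 (adjusted p 2e-05, 7.17e-06 and 9.78e-08), and no call was lost when any 1 library was left out. pmp-4, an importer of fatty acids into peroxisomes, was called lower in zip2 only (-0.90, adjusted p 0.031), a call lost without fed replicate 3 or starved replicate 1 or 2 (up to 0.159). pmp-3, often used as a reference gene in worm PCR, had values of -0.09 to 0.23 and was not called.

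pmp-1 and pmp-2 lie 285 bases apart on chromosome II, both on the minus strand. Their deposited counts were fractional in 22 libraries at a tolerance of 0.001, and in all 22 the sum of the pair was whole, so some counts were divided between the pair and single values are uncertain. In N2, pmp-1 was at 11.7, 28.3 and 29.8 CPM fed and at 10.8, 2.84 and 15.6 CPM starved, and pmp-2 at 13.5, 19.9 and 25.3 CPM fed and at 36.2, 16.3 and 37.2 CPM starved. Both pairs of groups overlapped, and neither gene was called in N2 (-1.24, adjusted p 0.141, and 0.61, adjusted p 0.264). The share of pmp-2 in the summed counts was 53.5%, 41.3% and 46.02% in fed N2 and 77.0%, 85.1% and 70.4% in starved N2. The share depends on how counts were divided between the pair, so it is uncertain too. It was higher in every starved library than in any fed library of the same strain. The means went from 44.1% to 72.7% in efk1, from 42.8% to 80.9% in zip2 and from 40.6% to 75.7% in the libraries labelled cep1. The summed level of the pair was 42.8 ± 15.7 CPM in fed and 39.6 ± 18.0 CPM in starved N2. pmp-1 was called lower in zip2 (-1.93, adjusted p 0.0279), a call lost without fed replicate 2, fed replicate 3 or starved replicate 2 (up to 0.109).

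**Figure D3:**
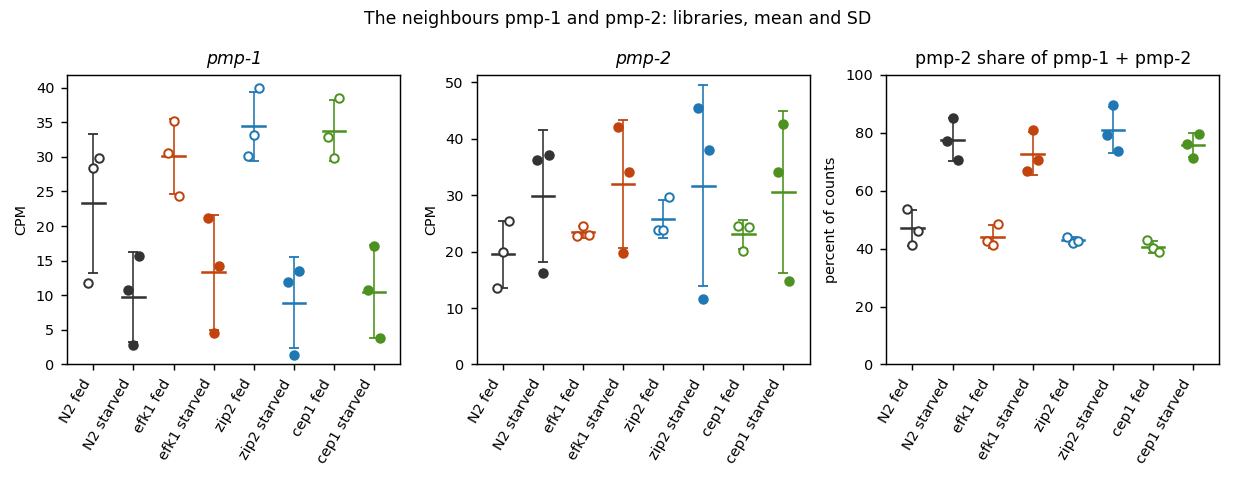
Level of pmp-1 and of pmp-2 in CPM, and the share of pmp-2 in their summed counts in percent, by group. Open circles are fed libraries, filled circles starved ones, and bars mean and SD of 3 libraries. Both genes overlap between fed and starved N2, while the share is 41.3% to 53.5% in fed and 70.4% to 85.1% in starved N2. The share depends on how counts were divided between the pair.

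Markers of tissues moved with food as well. Over all genes, starvation of N2 called 15.9% higher and 16.4% lower, and the shares of the other strains are given above. The 4 intestinal markers tested summed to 2535 to 3092 CPM in fed N2 and 514 to 811 CPM in starved N2. Of these, act-5, the actin of the gut brush border, was called lower (-3.87), and elt-2, ges-1 and ifb-2 were not called, with values of -0.12 to -0.42. The 5 oocyte markers summed to 977 to 1087 CPM in fed N2 and 1778 to 3055 CPM in starved N2, and 2 of the 5 were called higher. All 5 oocyte markers were called higher in efk1 and in zip2, and 0 of 5 in cep1, where the sums were 671 to 2325 CPM fed and 1538 to 3747 CPM starved. The 5 hypodermal markers summed to 223 to 685 CPM in fed N2 and 105 to 137 CPM in starved N2, and 4 of 5 were called lower, as in efk1 and zip2, against 2 of 5 in cep1. The intestinal sums were 2384 to 2707 CPM fed and 1005 to 1385 CPM starved in efk1, 2016 to 2899 and 606 to 1038 CPM in zip2, and 1712 to 2432 and 503 to 735 CPM in cep1, and act-5 was called lower in each. These sums were mostly act-5 in fed animals, at a mean of 2106 CPM in N2 and 2021 CPM in efk1. In starved efk1, 1 of the 4 intestinal markers was called higher, and ifb-2 went from a mean of 497 to 772 CPM. In N2, of 6 germline markers 1 was called higher, 1 of 4 body muscle and 1 of 5 sperm markers were called lower, and 0 of 6 neuronal and 0 of 4 pharyngeal muscle markers were called. No marker of these lists was at 0 in all libraries. The part of tissue makeup in the members' changes was not tested.

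**Figure D4:**
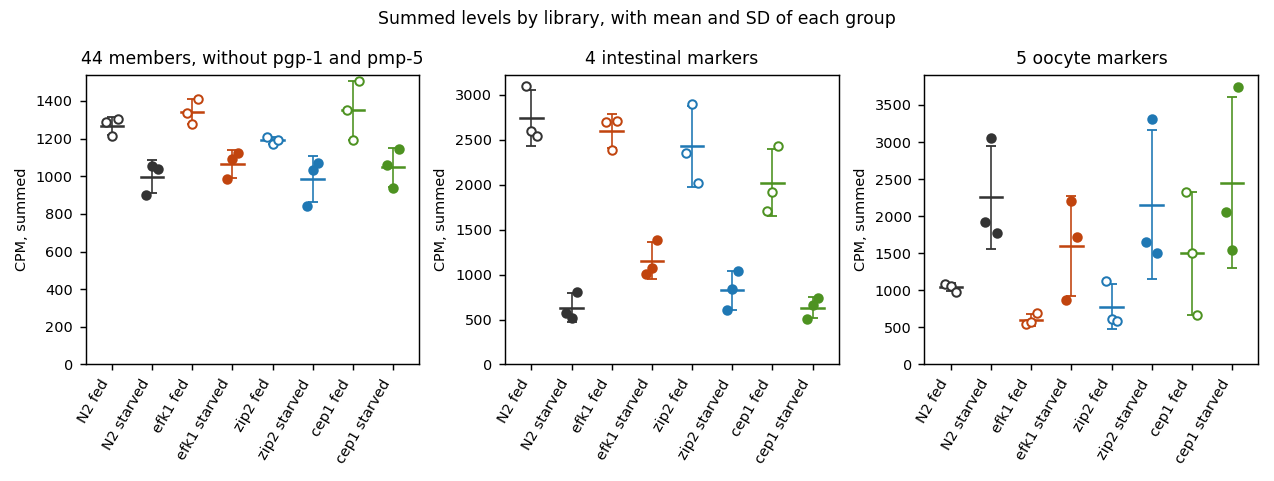
Summed level in CPM of the members without pgp-1 and pmp-5, of 4 intestinal markers and of 5 oocyte markers, by group. Open circles are fed libraries, filled circles starved ones, and bars mean and SD of 3 libraries. Members went from 1267 ± 48.1 CPM in fed to 998 ± 86.6 CPM in starved N2, the intestinal sum was lower and the oocyte sum higher in every starved N2 library than in any fed one.

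Between strains, few members differed, and 1 gene did so most clearly. haf-6, whose product is required for efficient RNA interference in worms, was higher in efk1 and in zip2 than in N2. In fed animals it was at 7.74, 5.76 and 7.92 CPM in N2, 46.1, 39.9 and 46.6 CPM in efk1, 42.3, 42.1 and 47.1 CPM in zip2 and 7.43, 8.26 and 6.88 CPM in the libraries labelled cep1. In starved animals it was at 7.47, 7.17 and 7.97 CPM in N2, 22.2, 28.5 and 28.1 CPM in efk1, 24.2, 42.4 and 27.1 CPM in zip2 and 8.98, 6.197 and 9.58 CPM in the libraries labelled cep1. The groups thus formed a high pair and a low pair with a wide gap, fed or starved. The log2 fold change against N2 was 2.63 (SE 0.22, adjusted p 6.94e-07, 6.19-fold) in fed efk1 and 2.62 (SE 0.22, adjusted p 1.48e-06, 6.14-fold) in fed zip2. It was 1.80 (SE 0.22, adjusted p 0.000116) in starved efk1 and 2.05 (SE 0.22, adjusted p 4.31e-05) in starved zip2. In the libraries labelled cep1 it was 0.08 fed (adjusted p 0.85) and 0.13 starved (adjusted p 0.83). The efk1 and zip2 comparisons share the N2 libraries. None of the 4 calls was lost when any 1 library was left out, and the fed efk1 value then lay between 2.49 and 2.71.

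haf-6 was the only member called in fed efk1, where 1 of 46 was higher and 0 lower against 1.51% of all genes (0.0819% higher, 1.43% lower). In starved efk1 it was likewise the only call, 1 of 46 against 1.93% of all genes (0.693% higher, 1.23% lower). Starvation lowered haf-6 in efk1 (-0.75, adjusted p 0.0117), a call lost without starved replicate 1 (adjusted p 0.0516). In zip2 the value was -0.49 (adjusted p 0.0731), and the responses of efk1 and zip2 were not called different from that of N2 (interactions of -0.83, adjusted p 0.519, and -0.57, adjusted p 0.986). The gene (WBGene00001816) lies on chromosome I, 1162880 to 1175809, minus strand, and its end overlaps that of Y48G8AL.7 (1157571 to 1162923, plus strand). The libraries were strand-specific, and whether the counting used strand is not given in the sources used here. Of the 6 nearest protein-coding genes tested, aps-3, rpl-17, Y48G8AL.7, smg-2, nsun-2 and herc-1, 0 were called in any mutant, with values of -0.39 to 0.28 in fed efk1 and -0.38 to 0.34 in fed zip2. Of 20 further RNA interference genes tested, 0 were called in efk1 or zip2 against N2, fed or starved.

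In starved efk1 and N2, same-numbered libraries deviated from their group means together (r of 0.391 to 0.752), and so did those of starved zip2 and N2 (0.538 to 0.693). With the replicate number as a block in a fit of these 6 libraries alone, 14 of 45 members (31.1%) were called in starved efk1, 9 higher and 5 lower, in place of 1. That fit called 29.1% of all genes, 15.7% higher and 13.4% lower, so the members' share was near the background. Beside haf-6 (1.75, adjusted p 8.65e-07), the members called with the smallest adjusted p were pgp-14 (1.496, adjusted p 1.32e-05) and haf-4 (0.63, adjusted p 0.000923). Without the block, pgp-14 was at 17.9, 4.94 and 15.3 CPM in starved N2 and at 52.9, 20.3 and 33.8 CPM in starved efk1, a log2 fold change of 1.48 (adjusted p 0.172).

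zip2 differed from N2 also in a run of P-glycoprotein genes on chromosome X. pgp-5, pgp-8, pgp-7 and pgp-6 stand in this order from 10854216 to 10877425 on the minus strand, 3, 924 and 963 bases apart, with 0 other coding genes between them. In worms, pgp-5 is known from responses to bacterial toxins, metals and blocked translation. pgp-6 was at 16.3, 19.1 and 21.9 CPM in fed N2 and at 3.49, 3.01 and 3.52 CPM in fed zip2, and at 5.99, 4.19 and 17.3 CPM in starved N2 and 1.71, 0.904 and 2.06 CPM in starved zip2. All zip2 libraries were below all N2 libraries under the same food, though starved N2 replicate 3 stood well above the other two. The log2 fold changes were -2.51 (SE 0.59, adjusted p 0.0367) fed and -2.54 (SE 0.62, adjusted p 0.0434) starved. With haf-6, this made 2 of 46 members called in fed zip2, 1 higher and 1 lower, against 1.13% of all genes (0.0315% higher, 1.1% lower). The fed pgp-6 call was lost in all 6 fits that left out 1 library (adjusted p up to 0.225, values -2.40 to -2.61). The starved call was lost in 4 of 6, without starved N2 replicate 3 (adjusted p 0.737) or any 1 of the starved zip2 libraries. In a fit of the starved zip2 and N2 libraries alone, the starved value was not called without a replicate block (adjusted p 0.198). With the block it was -2.41 (adjusted p 3.05e-08). DESeq2 called it (adjusted p 0.000908), and edgeR with library totals alone did not (adjusted p 0.149).

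pgp-5 was at 2.92, 7.38 and 7.68 CPM in fed N2 and at 0.370, 0.868 and 1.03 CPM in fed zip2. Starved, it was at 2.51, 0.541 and 6.92 CPM in N2 and at 0.208, 0 and 0.2496 CPM in zip2. No zip2 library reached the lowest N2 library under the same food, but the starved N2 values were widely spread. The log2 fold change was -2.97 (SE 0.82, adjusted p 0.122) fed and -4.27 (SE 1.02, adjusted p 0.0329) starved. The fed value was not called in the fit of all 24 libraries. It was called by DESeq2 (adjusted p 0.00497) and in the fits of fed zip2 and N2 alone, without and with a replicate block (0.0209 and 0.0208), and its adjusted p was 0.0629 to 0.446 under the other scalings, with no filter and with a block over all libraries. The starved value rests on 4.555, 0 and 4.394 estimated counts in zip2, and its call was lost in 4 of 6 fits, without starved N2 replicate 3 (adjusted p 0.456) or any 1 of the starved zip2 libraries. In starved zip2, 3 of 46 members were called, haf-6 higher and pgp-5 and pgp-6 lower, against 1.3% of all genes (0.0441% higher, 1.26% lower). With the block the count was 2 of 43, against 1.71% of all genes (0.318% higher, 1.4% lower), since pgp-5 did not pass the expression filter of that fit. pgp-8 had a value of 0.07 in fed and -0.98 in starved zip2, and pgp-7 one of -1.27 and -0.98, with at most 9.84 estimated counts in any N2 library. Neither was called.

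The counts of pgp-5, pgp-6 and pgp-7 were fractional in 23 libraries, and the sum of these 3 was whole in all 23, so some counts were divided among them. Summed over pgp-5, pgp-6, pgp-7 and pgp-8, the level was 19.7, 27.6 and 30.9 CPM in fed N2 and 4.81, 4.98 and 5.06 CPM in fed zip2. Starved, it was 9.01, 5.01 and 24.9 CPM in N2 and 2.25, 0.904 and 2.68 CPM in zip2. The sum, which a division of counts within the set cannot move, was lower in every zip2 library than in any N2 library under the same food. In fed efk1 it was 21.1, 27.4 and 29.9 CPM, within the range of N2 and its spread. Of the 6 nearest coding genes tested around the run, 0 were called in zip2, with values of -0.10 to 0.45 fed and -0.15 to 0.55 starved.

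**Figure D5:**
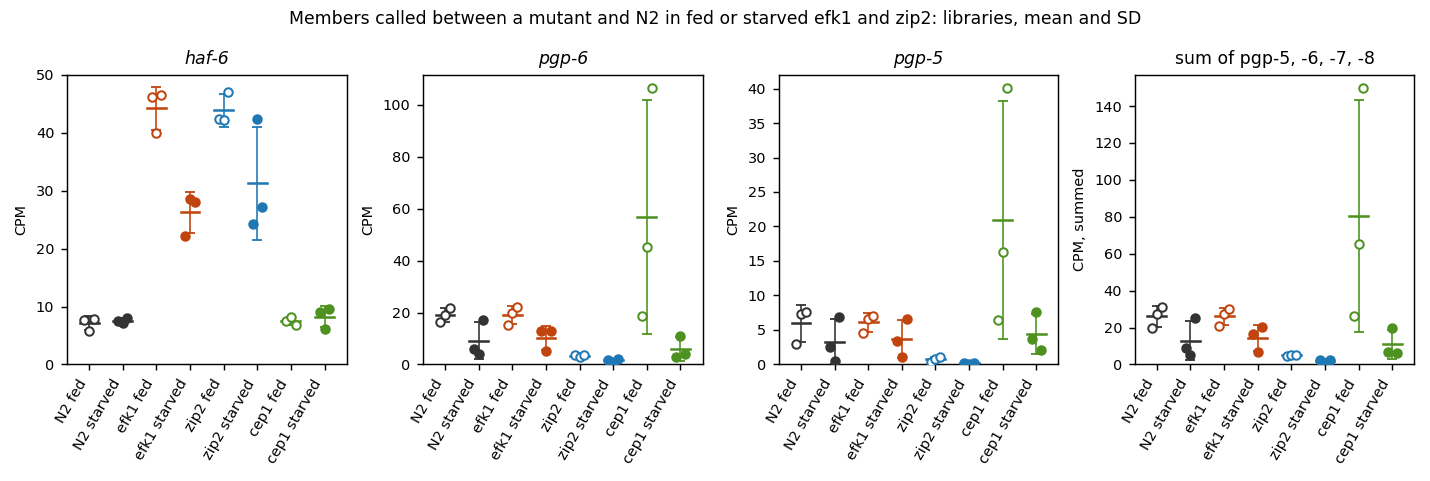
Level in CPM of haf-6, pgp-6 and pgp-5, and summed level of pgp-5, pgp-6, pgp-7 and pgp-8, by group. Open circles are fed libraries, filled circles starved ones, and bars mean and SD of 3 libraries. haf-6 is at 39.9 to 46.6 CPM in fed efk1 and 5.76 to 7.92 CPM in fed N2, and the sum of the pgp run is 4.81 to 5.06 CPM in fed zip2 and 19.7 to 30.9 CPM in fed N2.

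The same run of genes was uneven among the fed libraries labelled cep1, where its sum was 26.3, 65.3 and 149.7 CPM. pgp-6 alone was at 18.7, 45.3 and 106 CPM there, and at 2.91, 11.1 and 3.88 CPM in the starved ones. The fed libraries differed several-fold among themselves but all lay above the starved ones. In the same order these fed libraries had 2325, 1502 and 671 CPM of oocyte markers and 194, 438 and 565 CPM of hypodermal markers. Their intestinal markers summed to 1712, 1919 and 2432 CPM. The part of these markers in the levels of the run was not tested. Starvation lowered pgp-6 by 3.24 on the log2 scale (SE 0.60, adjusted p 0.000421), and pgp-8 and pgp-5 had log2 fold changes of -2.39 (adjusted p 0.00625) and -2.22 (adjusted p 0.0287). The pgp-5 call was lost without fed replicate 3 (adjusted p 0.233), starved replicate 1 or starved replicate 3. In N2 the starvation values of these 3 genes were -1.04, -0.70 and -0.81, and none was called. Against fed N2, the values of pgp-5, pgp-8 and pgp-6 in the fed libraries labelled cep1 were 1.80, 1.65 and 1.57 (adjusted p 0.13, 0.0924 and 0.093).

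In fed animals edgeR called 0 of the 46 members between the libraries labelled cep1 and N2, against 4.89% of all genes (2.36% higher, 2.53% lower). At an unadjusted p under 0.05 there were 8 of the 46, against 3960 of all 15871 genes, and DESeq2 called 2. Without fed cep1 replicate 3, edgeR called 5. For DESeq2 and for that smaller fit the shares of all genes called are not given here, so both counts stand without a background. In starved animals 4 were called, all lower, against 7.71% of all genes (3.33% higher, 4.37% lower). pmp-5 was at 73.5, 73.6 and 104 CPM in starved N2 and at 45.9, 41.6 and 18.1 CPM in the starved libraries labelled cep1. These groups did not overlap. On the log2 scale the change was -1.25 (SE 0.26, adjusted p 0.00726), and the call was lost without starved N2 replicate 3 (adjusted p 0.0533). pgp-3 was at 11.6, 10.8 and 13.6 CPM in N2 and at 5.31, 5.64 and 7.70 CPM in the libraries labelled cep1 (-0.95, SE 0.24, adjusted p 0.0189). wht-4 was at 10.3, 13.5 and 15.8 CPM against 2.65, 6.44 and 9.14 CPM (-1.13, SE 0.34, adjusted p 0.0433), and abt-5 at 6.19, 4.67 and 7.97 CPM against 1.75, 4.20 and 2.82 CPM (-1.11, SE 0.33, adjusted p 0.0465). For these 3 genes the groups were separate, with narrow gaps for wht-4 and abt-5. Without starved N2 replicate 3 edgeR called 0 of the 4, and without starved cep1 replicate 1 it called 1. The wht-4 call was lost without starved N2 replicate 2 or 3 or starved cep1 replicate 1 (adjusted p 0.23) or 2, that of abt-5 without starved N2 replicate 1 or 3 or starved cep1 replicate 1 (0.244) or 3, and that of pgp-3 without starved N2 replicate 3 or starved cep1 replicate 1 (0.104) or 2. In a fit of these 6 libraries alone none of the 4 was called, with or without the replicate block, and those fits called 0.216% and 0.0203% of all genes.

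No member was called in the tests of whether starvation acted differently in a mutant than in N2. edgeR called 0 of 46 for efk1 (0.246% of all genes), 0 for zip2 (0% of all genes) and 0 for the libraries labelled cep1 (0% of all genes). The smallest adjusted p was 0.519, 0.986 and 0.544. At an unadjusted p under 0.05 there were 4, 1 and 4 members, against 854, 195 and 902 of all 15871 genes. DESeq2 called 0 in each. Among those with an unadjusted p under 0.05 were abt-4 (1.44, SE 0.48, adjusted p 0.544) and pgp-6 (-2.20, SE 0.79, adjusted p 0.638) in cep1 and pgp-14 in efk1 (1.74, SE 0.72). A fall called in 1 strain and not in another, such as that of pgp-14, is thus not shown to differ between them.

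Genes that work beside these transporters moved in mixed directions in starved N2. The background for these lists and those of the next paragraph was 15.9% of all genes called higher and 16.4% lower. Of 8 ABC genes outside the name pattern, abtm-1, a mitochondrial transporter of iron-sulfur cluster biology (-0.72), and abch-1 (-2.04) were called lower, abcf-2 was called higher (0.71), and 5 including the engulfment gene ced-7 (0.25) were not called. abcf-2 was called higher in all 4 strains (0.71 to 0.90). Of 21 peroxisomal genes 7 were higher, among them the oxidases acox-3 (2.38) and acox-1.1 (0.85), the hydratase maoc-1 (1.33), the catalase ctl-2 (1.70) and the peroxin prx-11 (1.38). A further 3 were lower, acox-1.2 (-1.23), acox-1.3 (-1.16) and acox-1.4 (-1.97). The peroxisomal list had a median of 0.43, while the pmp genes had a median of -0.51 with pmp-5 as the only call. The counts of higher and lower genes among the 21 were 8 and 2 in efk1, 10 and 2 in zip2 and 3 and 4 in cep1. Over all genes the shares higher and lower were 13.7% and 11.6%, 17.6% and 16.8%, and 12.3% and 16.1%.

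Around hmt-1, the metallothionein gene mtl-1 was higher (5.93) and cdr-1, a cadmium-responsive gene, was lower (-2.75), while the phytochelatin synthase pcs-1 was not called (0.06). Among 12 gut granule genes, glo-1, a Rab GTPase of these granules, was lower (-1.19) and apb-3 (0.92) and snpn-1 (0.73) were higher. haf-4 and haf-9 thus fell beside 1 other granule gene of 12. Of 20 RNA interference genes, 6 were higher (rde-8, rde-10, mut-2, mut-7, sid-1 and eri-1, from 0.63 to 1.00) and 1 was lower, sid-2, which takes up double-stranded RNA in the gut (-1.22). Of 9 regulators of responses to foreign compounds and fat, nhr-48, nhr-49, mdt-15 and wdr-23 were higher (0.58 to 0.98) and 0 were lower. Between mutants and N2, fed cep1 had 1 of 21 peroxisomal, 2 of 20 RNA interference and 2 of 9 regulator genes called, all higher. Starved efk1 had 1 of 21 peroxisomal genes called, also higher. Over all genes, 2.36% were called higher in fed cep1 and 0.693% in starved efk1. acox-1.3 was higher in the fed libraries labelled cep1 (1.16) and in starved efk1 (1.03), and rde-10 (0.74), mut-2 (1.02), nhr-49 (0.63) and wdr-23 (0.89) were higher in the fed libraries labelled cep1.

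The members are spread over the genome, with 14 of 46 on chromosome X, 8 on V, 7 on III, 6 each on I and IV and 5 on II. The median log2 fold change on starvation of N2 was -0.83 for the 14 on X and -0.52 for the other 32. Exon length ran from 1902 to 6672 bases, and across the 46 genes its Spearman correlation with the N2 log2 fold change was -0.169. Genes are not independent replicates and share the same libraries, so this is a description only.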

How the data were processed

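RNA was measured by strand-specific sequencing of whole animals, in 24 libraries grouped by strain and food from the labels. The deposited table holds estimated counts per gene made by the authors, of which 8.999% of nonzero values were fractional at a tolerance of 0.001. The submitters' processing notes name Trimmomatic 0.36, Salmon 0.9.1, edgeR and the build WBcel235, and give no settings used here. Counts were rounded to whole numbers, filtered with filterByExpr, scaled by TMM and fitted with robust edgeR 4.0.16 quasi-likelihood models (R 4.3.3) with 1 mean per group, and p-values were adjusted over 15871 genes. The fitting steps were also run on simulated counts with independent noise. Those counts lacked the shared and gene-length deviations described above, so that run cannot check the calls in these libraries. DESeq2 1.42.0, other scalings and filters, replicate blocks and leaving out each library were the alternatives. Same-numbered libraries deviated together in starved efk1 and N2 and in starved zip2 and N2, with the numbers taken from the sample titles. Values per library are given for the 4 largest called rises and falls in N2, members called between strains (at most 4 each way) and the most abundant member of each class, and others more briefly. The members and lists were chosen with earlier results of these data known. Total counts per library limit the precision of scarce members.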

Additional observations from a re-analysis of the deposited data

How the results depend on the processing

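Leaving out 1 library at a time, members called on starvation numbered 10 to 23 in N2 (16 with all libraries), 6 to 11 in efk1 (13), 10 to 23 in zip2 (19) and 9 to 24 in cep1 (18). Against N2 they numbered 1 in fed zip2 (2), 0 to 5 in fed cep1 (0), 1 to 3 in starved zip2 (3) and 0 to 5 in starved cep1 (4). Fits of only the groups compared gave 23 for efk1 starvation, 9 for cep1 starvation, 1 for starved zip2 and 0 for starved cep1. Library totals alone gave 1 for fed zip2, 2 for fed cep1, 1 for starved zip2 and 0 for starved cep1, and this scaling moved the median of all genes from 0.033 to 0.224 in fed and from 0.04 to 0.211 in starved cep1. No expression filter gave 1 for fed and 1 for starved zip2. DESeq2 gave 2 for fed and 7 for starved cep1, and 3 for fed zip2, where fits of only the groups compared also gave 3. For hmt-1 the N2 starvation value of -0.05 became 0.01 and 0.017 without starved replicate 1 or 3, and lay between -0.185 and 0.017 over all such fits. Of the alternative values for named members, 233 kept direction and side of the threshold, 68 lost the call and 2 changed sign. The causes were not tested. Where no share of all genes is given, a changed count of members is not shown to be particular to them. In starved efk1 the share of all genes called was 1.93% in the main fit. It was 29.1% in the fit of only the groups compared with the replicate block.

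With the replicate number as a block and no other groups in the fit, 14 members (31.1%) were called in starved efk1, where 29.1% of all genes were, 7 (15.6%) in cep1 starvation, where 10.4% of all genes were, and 0 in starved cep1, where 0.216% of all genes were. Same-numbered libraries deviated together in starved efk1 and starved zip2 against N2. In the other comparisons some same-numbered libraries had a negative r. Libraries with different numbers were not compared and the labels name no batch, so a shared origin of same-numbered libraries is not established. Without the 3 starved libraries numbered 2, an alternative chosen after seeing the data, the counts against N2 were 1 for starved efk1, 2 for starved zip2 and 5 for starved cep1. No share of all genes is given for that fit, so these counts are not shown to be particular to the members. Scarce members such as pgp-7 and cft-1 are limited by depth.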
